A study of Homo sapiens with 28 samples.

Results

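The transcripts of 10 genes of cell-cell adhesion were followed in RNA-seq libraries of MDA-MB-231, a human breast cancer line of mesenchymal type. They are the catenin genes CTNNA1, CTNNB1 and CTNND1, the nectin genes NECTIN1, NECTIN2 and NECTIN3 with their relative PVR, and the immunoglobulin adhesion molecules ALCAM, L1CAM and CEACAM1. They were chosen by gene name, with no measured value in the rule, and are 10 of the 58735 genes in the deposited count table. All 10 had enough reads to be among the 17191 genes tested.

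The EV and Tpm2.1 lines were compared, both grown in medium with puromycin. The Tpm2.1 line overexpresses tropomyosin 2.1, an actin filament protein encoded by TPM2, and the EV line carries an empty vector. The 28 libraries form 14 groups of 2. Apoptotic Tpm2.1 cells and non-apoptotic Tpm2.1 cells were taken from suspension on ultra-low attachment plates after 5 hours and after 1, 2 and 4 days, EV cells from suspension at the same times, and Tpm2.1 cells and EV cells from tissue culture plates after 6 hours of attachment. Annexin V beads, which bind phosphatidylserine on the outer face of dying cells, divided the suspended Tpm2.1 cells into the 2 fractions. No bead step is named for EV or attached samples, so a fraction differs from either in the separation as well, and what each contributes cannot be told apart. Attached cells were taken at 6 hours only. Where they are set against suspended cells of 1, 2 and 4 days, or a mean that holds these times, loss of attachment and time in culture cannot be told apart. Each line stands once, and the sources used here do not give whether it is a clone or a pool. The sample titles name biological replicates without saying how the cultures were set apart, so p-values measure the spread between these libraries, which may be technical.

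At adherens junctions the tail of a classical cadherin binds beta-catenin (CTNNB1) and p120-catenin (CTNND1), and beta-catenin binds alpha-catenin (CTNNA1), which ties the complex to actin. Beta-catenin that escapes destruction also acts in the nucleus as the co-activator of canonical Wnt signalling. Nectins bind each other across neighbouring cells and reach actin through afadin, while NECTIN2 and PVR on tumour cells are also ligands of the lymphocyte receptors CD226, TIGIT, CD96 and PVRIG. Detachment from matrix can start anoikis, a form of apoptosis, and contacts between cells are known to bear on it, which is the setting of the study.

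Library totals ranged from 13043529 to 27416335 counts. TPM2 lay between 2461 and 7861 CPM (counts scaled to a common total, after TMM) in Tpm2.1 libraries and between 22.7 and 46.1 CPM in EV libraries. Both apoptotic libraries of 4 days stood apart from all others, with 18183 and 18676 genes detected against 21275 to 24530 elsewhere, and results on apoptotic cells are therefore given with and without that time. Summed over a list, markers of MDA-MB-231 cells lay between 2507 and 5184 CPM, epithelial markers between 167 and 813 CPM, and leukocyte markers between 0.453 and 5.598 CPM. The epithelial and neural cadherins that define many adherens junctions were all but absent, with 0 to 7 counts of CDH1 and 0 to 8 counts of CDH2 per library.

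Per deposited gene length, CTNNA1, ALCAM and CTNNB1 were the most abundant of the 10 genes in attached cells and CEACAM1 was the least. The deposited FPKM values scale reads by library depth and by the deposited gene length, which exceeds the longest transcript of each gene. For CTNNB1 these lengths are 11927 and 4888 bases and for PVR 3519 and 3325, so the order of genes holds for the deposited length only. Attached Tpm2.1 cells held 75.2 ± 0.39 FPKM of CTNNA1 and attached EV cells 78.0 ± 0.0335 FPKM (mean ± SD, n = 2, as for the FPKM values that follow). ALCAM followed with 62.5 ± 0.242 FPKM in attached Tpm2.1 cells and 73.4 ± 0.836 FPKM in attached EV cells, and CTNNB1 with 56.9 ± 0.0948 and 61.3 ± 0.997 FPKM in the same order. Among the nectin family PVR led in both lines, at 46.0 ± 0.16 FPKM in attached Tpm2.1 cells and 55.4 ± 0.147 FPKM in attached EV cells. NECTIN2 came next with 36.1 ± 0.34 FPKM in attached Tpm2.1 cells and 35.1 ± 1.29 FPKM in attached EV cells. The other nectins were scarcer, since NECTIN3 stood at 9.75 ± 0.246 and NECTIN1 at 7.52 ± 0.0773 FPKM in attached Tpm2.1 cells. L1CAM held 2.30 ± 0.0358 FPKM in attached Tpm2.1 cells and 5.03 ± 0.447 FPKM in attached EV cells, and CEACAM1 0.420 ± 0.026 FPKM in attached Tpm2.1 cells. Over all 28 libraries the catenins varied least, with a ratio of the highest to the lowest group mean of 1.498 for CTNNA1, 1.61 for CTNNB1 and 1.76 for CTNND1 in CPM. NECTIN1 and NECTIN2 varied most, with ratios of 6.39 and 5.16, and for both the lowest group was the apoptotic fraction of 4 days.

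**Figure D1:**
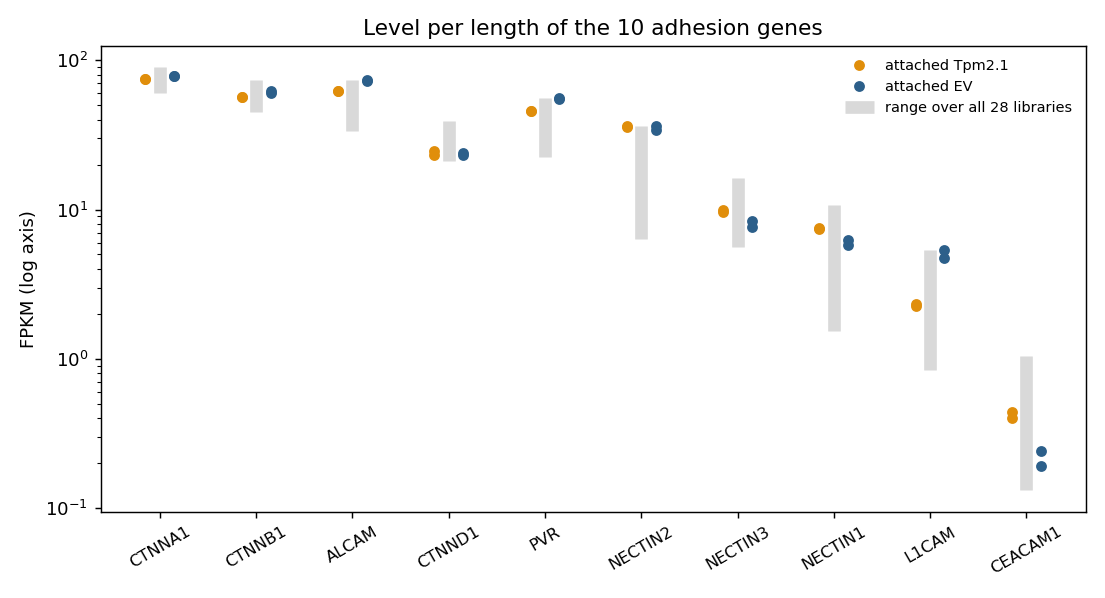
Abundance per deposited gene length (FPKM, log axis) of the 10 genes in attached cells, ordered by the median over all 28 libraries. Points are single libraries of attached Tpm2.1 cells and attached EV cells, and the grey bar spans all 28 libraries. CTNNA1 has the highest median at 74.7 FPKM and CEACAM1 the lowest at 0.480 FPKM, and the bars of NECTIN1 and NECTIN2 reach far below their points.

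In attached cells 6 of the 10 genes differed between the lines, 3 higher and 3 lower in Tpm2.1, where 20.5% of all genes passed. With any 1 of the 4 attached libraries left out, 4 to 5 of the 10 genes passed, and 2028 to 2188 of all genes in place of 3516. In attached Tpm2.1 cells 11 of 13 mitochondrial mRNAs (median log2 difference 0.38) and 3 of 3 nuclear-retained RNAs (1.01) were higher too, and their part was not tested. A gene passed at an adjusted p under 0.05 (edgeR's quasi-likelihood test, Benjamini-Hochberg over all genes tested). Against attached cells of their line, 8 genes passed in non-apoptotic Tpm2.1 cells over the 4 times, 4 higher and 4 lower, where 61.4% of all genes passed. In suspended EV cells 7 genes passed, 2 higher and 5 lower, against 66.3% of all genes. These shares are close to the background, and the median log2 difference of the 10 genes was 0.05 in non-apoptotic Tpm2.1 cells and -0.14 in EV cells, beside 0.03 and 0.06 for all genes tested. Mitochondrial mRNAs moved in opposite directions in the lines, 12 of 13 lower in non-apoptotic Tpm2.1 cells (median log2 difference -0.71) and 13 of 13 higher in EV cells (0.66), and their part in these results was not tested. Between the lines in suspension 7 genes passed, 5 higher and 2 lower in non-apoptotic Tpm2.1, where 60.5% of all genes passed. Of these 7, CTNNB1 (0.02, adjusted p = 0.52) and ALCAM (-0.01, adjusted p = 0.77) did not pass without 4 days, nor CTNNB1 after a correction for GC content, chosen after seeing the data (0.03, adjusted p = 0.332). At single times, in the order 5 hours and 1, 2 and 4 days, 8, 5, 8 and 6 genes passed in non-apoptotic Tpm2.1 cells against attached cells, beside 45.2%, 54.8%, 56.8% and 62.4% of all genes. In EV cells 8, 6, 8 and 8 genes passed at these times, beside 54.7%, 63%, 64.6% and 59.5%. Between non-apoptotic Tpm2.1 and EV cells the counts were 8, 6, 5 and 7, beside 40.9%, 40%, 44.4% and 43.9%, and at 5 hours all 8 were higher in Tpm2.1. Between 4 days and 5 hours 9 genes passed in apoptotic Tpm2.1, 9 in non-apoptotic Tpm2.1 and 8 in EV cells, beside 77%, 54.9% and 52.8%. The suspension response itself differed between the lines in 6 genes, beside 33.5% of all genes. The count over the 4 times in non-apoptotic Tpm2.1 cells rests on single libraries, since it was 5 without attached Tpm2.1 replicate 1, without attached Tpm2.1 replicate 2 or without the first 4-day non-apoptotic library, each time with NECTIN3, L1CAM and CEACAM1 lost.

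**Figure D2:**
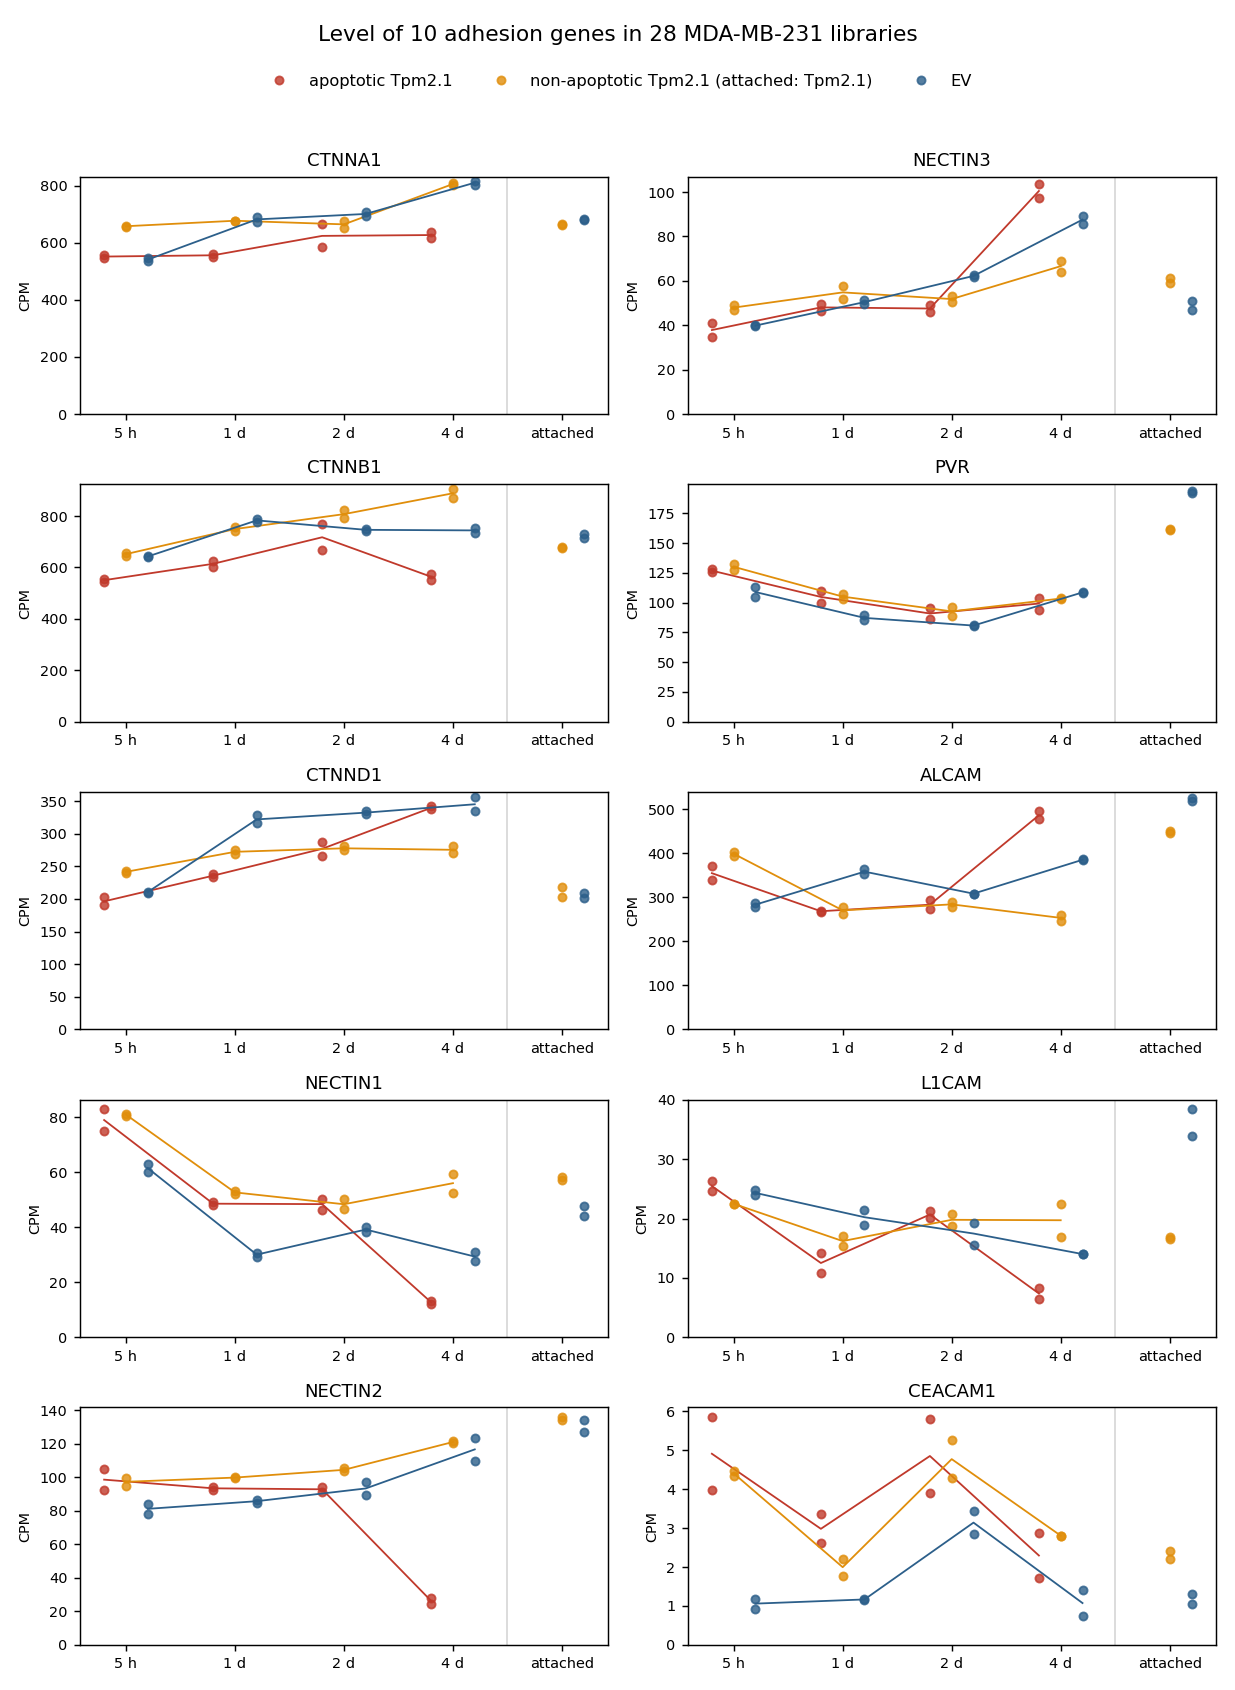
Level in CPM of each of the 10 genes in every library, by time in suspension and, right of the grey line, in attached cells; points are libraries and lines join the group means, in red for apoptotic Tpm2.1, orange for non-apoptotic Tpm2.1 (attached: Tpm2.1) and blue for EV. PVR and ALCAM lie below attached cells of their line in every suspended EV and non-apoptotic library, and NECTIN1 and NECTIN2 drop in apoptotic cells at 4 days to 12.2 and 24.3 CPM at the lowest.

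Of the catenins, CTNND1 rose in suspension in both lines, CTNNB1 rose slightly in non-apoptotic Tpm2.1 cells, and the level of CTNNA1 averaged over the times did not pass in either. CTNND1 (ENSG00000198561, chr11:57753243-57819546 on the plus strand of hg38) encodes p120-catenin, which holds cadherins at the cell surface. Non-apoptotic Tpm2.1 cells held 239.5 and 244 CPM after 5 hours, 276 and 269 after 1 day, 275 and 280.5 after 2 days, and 270.0 and 281 after 4 days, against 203 and 218 CPM in attached Tpm2.1 cells. Suspended EV cells held 209.6 and 211 CPM after 5 hours, 316 and 328 after 1 day, 334 and 330.4 after 2 days, and 335 and 356 after 4 days, against 209 and 201 CPM in attached EV cells. All non-apoptotic libraries lay above the attached ones, whereas EV cells lay just above attached cells at 5 hours and lay clear above them from 1 day on. The log2 difference over the 4 times was 0.34 ± 0.042 (SE, adjusted p = 5.25e-09) in non-apoptotic Tpm2.1 cells, a 1.27-fold difference, and 0.53 ± 0.043 (SE, adjusted p = 7.54e-14) in EV cells, a 1.45-fold difference. The rise was smaller in Tpm2.1 cells, with a difference of -0.19 ± 0.059 (SE, adjusted p = 0.00998), which did not pass without attached EV replicate 2 (adjusted p = 0.111) or without attached Tpm2.1 replicate 2 (adjusted p = 0.172). Bulk levels are shares of a library, so fewer cells with a transcript and less of it per cell cannot be told apart here or in any result that follows.

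CTNNB1 (ENSG00000168036, chr3:41194741-41260096 on the plus strand of hg38) encodes beta-catenin. Its levels in non-apoptotic Tpm2.1 cells were 646 and 658 CPM after 5 hours, 742 and 757 after 1 day, 823 and 792 after 2 days, and 906 and 872 after 4 days, against 678 and 676 CPM in attached Tpm2.1 cells. From 1 day on every non-apoptotic library lay above the attached ones. The log2 difference grew from 1 time to the next, with -0.05, 0.15, 0.25 and 0.39 from first to last and adjusted p of 0.42, 0.0165, 6.63e-05 and 2.4e-08. Without attached Tpm2.1 replicate 1 or 2, or the second non-apoptotic library of 1 day, the 1-day value no longer passed, at adjusted p = 0.0728, 0.0888 and 0.1. In suspended EV cells the gene stood at 639 and 647 CPM after 5 hours, 779 and 788 after 1 day, 742 and 751 after 2 days, and 734 and 754 after 4 days, against 716 and 731 CPM in attached EV cells. These EV values straddled the attached ones, with a mean log2 difference of 0.01 ± 0.041 (SE, adjusted p = 0.893). The difference between the 2 suspension responses, 0.18 ± 0.058 (SE, adjusted p = 0.0164), was lost without attached EV replicate 2 or either attached Tpm2.1 library, at adjusted p of 0.0905, 0.0602 and 0.0702.

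CTNNA1 (ENSG00000044115, chr5:138610967-138935034 on the plus strand of hg38), the gene of alpha-catenin, changed with time in suspension. At 5 hours EV cells held 536 and 545 CPM, below the 683 and 681 CPM of attached EV cells, with a log2 difference of -0.33 ± 0.051 (SE, adjusted p = 5.91e-07). By 4 days both lines lay above their attached cells, non-apoptotic Tpm2.1 cells with 808 and 803 CPM and EV cells with 803 and 817 CPM. The log2 difference from attached cells was then 0.28 ± 0.051 (SE, adjusted p = 6.7e-06) in non-apoptotic Tpm2.1 cells and 0.25 ± 0.051 (SE, adjusted p = 5.12e-05) in EV cells. In attached cells none of the 3 catenin genes passed between the lines, with log2 differences of -0.04 for CTNNA1, -0.10 for CTNNB1 and 0.03 for CTNND1 and an SE of at most 0.052.

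PVR (ENSG00000073008, chr19:44643798-44663583 on the plus strand of hg38), the poliovirus receptor, fell in suspension in both lines, and more in EV cells. Non-apoptotic Tpm2.1 cells held 133 and 128 CPM after 5 hours, 107 and 103 after 1 day, 89.0 and 96.5 after 2 days, and 103 and 104 after 4 days, against 162 and 161 CPM in attached Tpm2.1 cells. Suspended EV cells held 105 and 113 CPM after 5 hours, 85.1 and 89.4 after 1 day, 80.2 and 81.4 after 2 days, and 108 and 109 after 4 days, against 194 and 193 CPM in attached EV cells. No suspended library reached the attached level of its line, and in both lines the lowest level came at 2 days. Over the 4 times the log2 difference was -0.59 ± 0.044 (SE, adjusted p = 9.58e-15) in non-apoptotic Tpm2.1 cells, 1.51-fold lower, and -1.01 ± 0.044 (SE, adjusted p = 4.99e-22) in EV cells, 2.02-fold lower. The difference between these responses was 0.42 ± 0.064 (SE, adjusted p = 2.24e-06). In attached cells PVR was lower in Tpm2.1, with -0.26 ± 0.056 (SE, adjusted p = 0.000721). In suspension non-apoptotic Tpm2.1 cells lay above EV cells at 5 hours, 1 day and 2 days and slightly below at 4 days, with a mean log2 difference of 0.16 ± 0.031 (SE, adjusted p = 2.09e-05). The 2-day value of 0.20 did not pass without the first 2-day EV library (adjusted p = 0.0632) or the second 2-day non-apoptotic library (adjusted p = 0.138).

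NECTIN2 (ENSG00000130202, chr19:44846175-44889228 on the plus strand of hg38), a nectin that is bound by CD226 and PVRIG, fell as well but came back with time. In non-apoptotic Tpm2.1 cells it stood at 94.7 and 99.7 CPM after 5 hours, 99.2 and 100.2 after 1 day, 103 and 105 after 2 days, and 120.1 and 122 after 4 days, against 134 and 136 CPM in attached Tpm2.1 cells. Its EV levels were 78.0 and 84.2 CPM after 5 hours, 84.8 and 86.5 after 1 day, 89.3 and 97.2 after 2 days, and 123 and 109.9 after 4 days, against 134 and 127 CPM in attached EV cells. All suspended libraries of both lines lay below the attached ones, the last ones only just. The mean log2 difference was -0.36 ± 0.048 (SE, adjusted p = 2.11e-08) in non-apoptotic Tpm2.1 cells and -0.48 ± 0.048 (SE, adjusted p = 2.67e-11) in EV cells. From 5 hours to 4 days the level recovered by 0.31 ± 0.064 (SE, adjusted p = 5.81e-05) on the log2 scale in non-apoptotic Tpm2.1 cells and by 0.52 ± 0.066 (SE, adjusted p = 1.54e-08) in EV cells. At 4 days the remaining difference of -0.16 in non-apoptotic Tpm2.1 cells passed at adjusted p = 0.0259 but not without any single one of its 4 libraries, at adjusted p of 0.0691 to 0.115. The -0.16 in EV cells passed at adjusted p = 0.027 and was lost without attached EV replicate 1 (0.203) or the second 4-day EV library (0.401).

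NECTIN1 (ENSG00000110400, chr11:119623408-119729084 on the minus strand of hg38), the herpesvirus entry receptor among the nectins, rose early in suspension and then fell. Non-apoptotic Tpm2.1 cells held 81.4 and 80.6 CPM after 5 hours, 53.3 and 52.1 after 1 day, 50.3 and 46.5 after 2 days, and 59.5 and 52.6 after 4 days, against 57.4 and 58.2 CPM in attached Tpm2.1 cells. Suspended EV cells held 60.1 and 62.9 CPM after 5 hours, 29.3 and 30.7 after 1 day, 38.1 and 40.2 after 2 days, and 27.7 and 30.9 after 4 days, against 47.7 and 44.0 CPM in attached EV cells. In both lines the 5-hour libraries were the highest, by 0.49 ± 0.068 (SE, adjusted p = 1.79e-07) over attached cells in non-apoptotic Tpm2.1 and by 0.42 ± 0.073 (SE, adjusted p = 5.74e-06) in EV on the log2 scale. EV cells then lay below attached cells at all later times, reaching -0.64 ± 0.080 (SE, adjusted p = 5.71e-09) at 4 days. Non-apoptotic Tpm2.1 cells lay above EV cells at each of the 4 times with no overlap, by 0.61 ± 0.039 (SE, adjusted p = 1.09e-16) on average, 1.53-fold. Attached Tpm2.1 cells were higher too, by 0.33 ± 0.071 (SE, adjusted p = 0.000577).

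NECTIN3 (ENSG00000177707, chr3:111070071-111275563 on the plus strand of hg38), which pairs with the other nectins across cells, rose steadily in suspended EV cells. Its level there was 39.6 and 40.1 CPM after 5 hours, 49.4 and 51.5 after 1 day, 62.6 and 61.8 after 2 days, and 89.4 and 85.7 after 4 days, against 47.0 and 51.1 CPM in attached EV cells. In non-apoptotic Tpm2.1 cells it was 46.8 and 49.1 CPM after 5 hours, 57.7 and 51.8 after 1 day, 53.0 and 50.6 after 2 days, and 64.1 and 69.1 after 4 days, against 59.1 and 61.2 CPM in attached Tpm2.1 cells. Both lines started below attached cells at 5 hours, at -0.33 (adjusted p = 0.000178) in non-apoptotic Tpm2.1 and -0.30 (adjusted p = 0.000962) in EV on the log2 scale. At 4 days EV cells were above by 0.84 ± 0.071 (SE, adjusted p = 4.24e-13), and non-apoptotic Tpm2.1 cells stood at 0.15 ± 0.071 (SE, adjusted p = 0.0726). Averaged over the times, the difference between the 2 responses was -0.36 ± 0.079 (SE, adjusted p = 0.000413). The mean of non-apoptotic Tpm2.1 against attached Tpm2.1 cells was -0.13, or -0.16 to -0.11 with a library left out. It passed with all libraries, and that call rests on single libraries. Non-apoptotic Tpm2.1 against EV cells over the 4 times gave -0.07, which did not pass, and -0.14 (adjusted p = 0.000705) after the GC correction. The EV mean of 0.23 ± 0.058 (SE, adjusted p = 0.000644) was 0.03 without 4 days, and did not pass without attached EV replicate 1 (adjusted p = 0.0744). In attached cells NECTIN3 was higher in Tpm2.1 by 0.29 ± 0.070 (SE, adjusted p = 0.00203), or by 0.23 with adjusted p = 0.0831 when attached EV replicate 1 was left out.

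**Figure D3:**
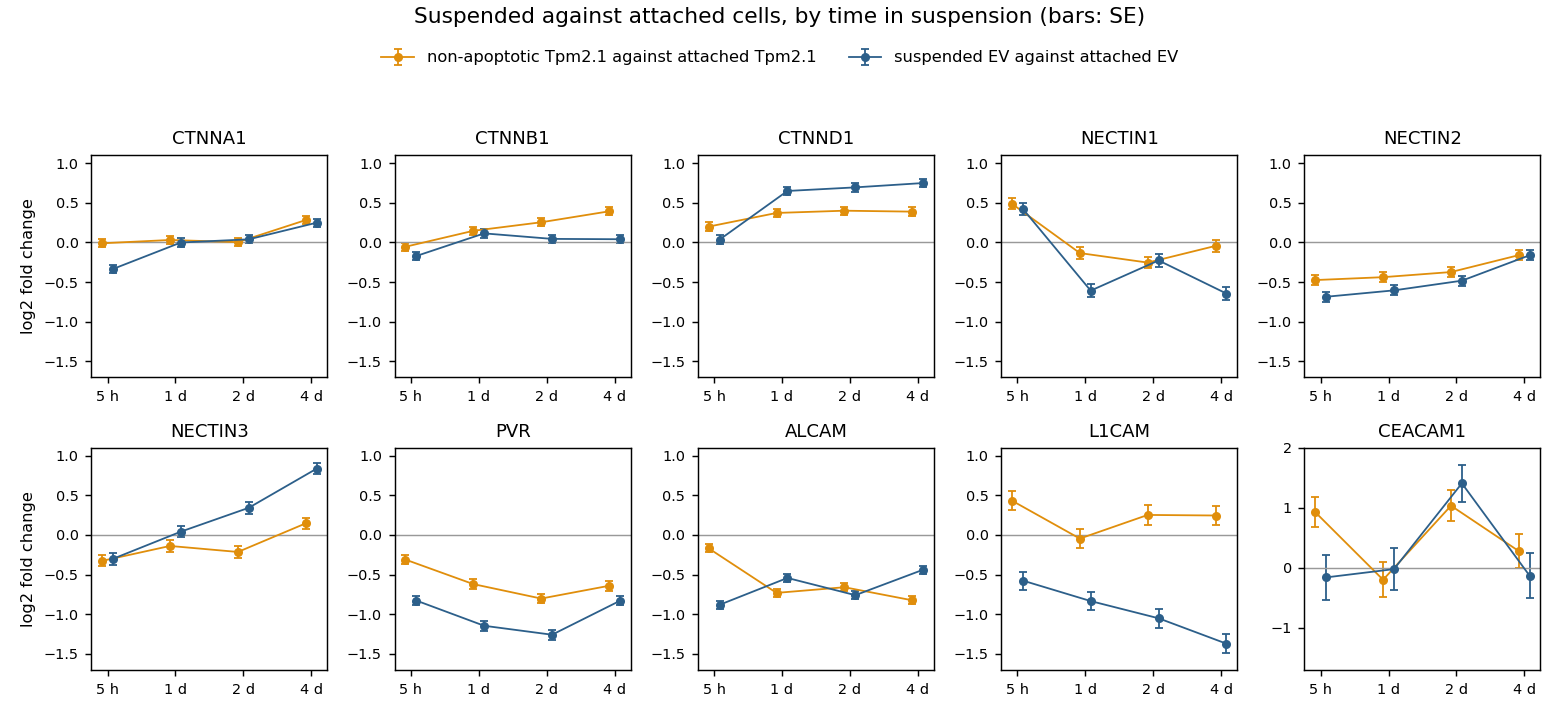
Log2 fold change (± SE) of each gene at each time in suspension, in orange for non-apoptotic Tpm2.1 cells against attached Tpm2.1 cells and in blue for suspended EV cells against attached EV cells; the CEACAM1 panel has its own vertical axis. PVR, ALCAM and NECTIN2 lie below 0 in both lines at all 4 times, NECTIN3 climbs in EV cells to 0.84, and L1CAM falls in EV cells to -1.37.

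The letters around the start sites are shown for PVR, NECTIN2, ALCAM and L1CAM, the 4 genes that fell most in suspended EV cells. The windows run from 250 bases before to 50 bases after the start in RefSeq's annotation of GRCh38.p14, which matched 8 of the 10 genes by symbol, all but CTNND1 and NECTIN1. They are chr19:44643660-44643959 (plus strand) for PVR, chr19:44846047-44846346 (plus strand) for NECTIN2, chr3:105366659-105366958 (plus strand) for ALCAM and chrX:153875895-153876194 (minus strand, the first of 2 entries) for L1CAM. The L1CAM window lies inside the gene of the count table, which on the minus strand begins at 153886174. Capitals mark letters searched on both strands: the SP1 motif as GGGCGG, the motif of TEAD factors as GGAATG, that of AP-1 as TGANTCA, the cyclic AMP element CRE as TGACGTCA, the E-box of ZEB and SNAI factors as CAGGTG, the motif of TCF/LEF factors as CTTTGAT and the TATA box as TATAAA.
PVR: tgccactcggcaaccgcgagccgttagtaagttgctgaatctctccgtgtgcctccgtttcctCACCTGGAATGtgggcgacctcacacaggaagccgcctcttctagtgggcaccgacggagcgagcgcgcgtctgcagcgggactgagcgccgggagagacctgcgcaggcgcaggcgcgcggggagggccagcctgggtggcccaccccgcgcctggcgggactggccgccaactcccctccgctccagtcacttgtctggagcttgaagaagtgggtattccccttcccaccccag
NECTIN2: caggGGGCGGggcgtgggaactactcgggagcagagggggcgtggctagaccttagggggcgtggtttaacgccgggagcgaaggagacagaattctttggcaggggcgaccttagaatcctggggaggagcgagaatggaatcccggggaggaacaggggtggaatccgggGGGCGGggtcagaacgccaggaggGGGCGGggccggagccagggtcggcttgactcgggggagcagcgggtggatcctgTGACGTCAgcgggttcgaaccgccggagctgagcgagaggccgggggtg
ALCAM: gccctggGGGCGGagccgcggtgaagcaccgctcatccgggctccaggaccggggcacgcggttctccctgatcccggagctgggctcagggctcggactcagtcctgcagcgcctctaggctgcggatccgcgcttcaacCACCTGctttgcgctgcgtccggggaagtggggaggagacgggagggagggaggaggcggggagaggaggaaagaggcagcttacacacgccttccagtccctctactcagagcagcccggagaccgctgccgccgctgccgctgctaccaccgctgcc
L1CAM: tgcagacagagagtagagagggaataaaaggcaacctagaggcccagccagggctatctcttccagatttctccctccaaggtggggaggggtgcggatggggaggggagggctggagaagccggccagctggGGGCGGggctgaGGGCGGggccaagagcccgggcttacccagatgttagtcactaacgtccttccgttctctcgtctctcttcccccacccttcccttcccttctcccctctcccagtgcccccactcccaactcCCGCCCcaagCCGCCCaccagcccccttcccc
In the PVR window an E-box at -187 and a TEAD motif at -182 overlap by 1 base, and no SP1 motif is present. Positions are those of the first base relative to the start site. NECTIN2 holds 3 SP1 motifs and a CRE at 2, ALCAM an SP1 motif at -243 and an E-box at -109, and L1CAM 4 SP1 motifs. The other L1CAM entry, not shown, holds 2 SP1 motifs. Of 35116 RefSeq promoters of this length 45% hold the SP1 letters, 20.6% the E-box, 14% the TEAD letters, 7.71% AP-1, 1.85% CRE, 2.62% TCF/LEF and 11.5% the TATA box. No motif is shared by all 4 windows, and none of them holds the AP-1, TCF/LEF or TATA letters searched.

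ALCAM (ENSG00000170017, chr3:105366909-105576900 on the plus strand of hg38), which binds itself and the lymphocyte receptor CD6 and is shed by ADAM proteases, fell in suspension in both lines. Non-apoptotic Tpm2.1 cells held 403 and 394 CPM after 5 hours, 277 and 263 after 1 day, 278 and 289 after 2 days, and 247 and 259 after 4 days, against 449 and 447 CPM in attached Tpm2.1 cells. EV cells in suspension held 288 and 279 CPM after 5 hours, 352 and 364 after 1 day, 308 and 308 after 2 days, and 386 and 384 after 4 days, against 518 and 525 CPM in attached EV cells. No suspended library of these groups reached the attached level. The means were close, -0.60 ± 0.039 (SE, adjusted p = 1.85e-16) in non-apoptotic Tpm2.1 cells and -0.65 ± 0.039 (SE, adjusted p = 8.15e-18) in EV cells, and their difference of 0.06 ± 0.057 (SE, adjusted p = 0.462) did not pass. The courses differed: at 5 hours non-apoptotic Tpm2.1 cells lay above EV cells by 0.49 ± 0.052 (SE, adjusted p = 5.81e-10), and at 4 days lay below them, with -0.60 ± 0.053 (SE, adjusted p = 2.02e-12). Attached Tpm2.1 cells held less than attached EV cells, with -0.22 ± 0.050 (SE, adjusted p = 0.00136).

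L1CAM (ENSG00000198910, chrX:153861514-153886174 on the minus strand of hg38), a neural adhesion molecule also found on carcinoma cells, separated the attached lines more than any other of the 10 genes. It stood at 16.9 and 16.5 CPM in attached Tpm2.1 cells and 34.0 and 38.4 CPM in attached EV cells, 2.17-fold lower, with a log2 difference of -1.12 ± 0.11 (SE, adjusted p = 7.95e-10). In suspension non-apoptotic Tpm2.1 cells held 22.5 and 22.5 CPM after 5 hours, 17.1 and 15.3 after 1 day, 20.8 and 18.8 after 2 days, and 22.5 and 16.97 after 4 days, and EV cells 23.9 and 24.8 CPM after 5 hours, 18.97 and 21.5 after 1 day, 15.6 and 19.3 after 2 days, and 14.03 and 13.99 after 4 days. Within a time the lines overlapped at 2 days only: non-apoptotic Tpm2.1 libraries lay below EV libraries at 5 hours and 1 day and above them at 4 days. The mean log2 difference of 0.06 ± 0.063 (SE, adjusted p = 0.445) did not pass, but was 0.19 (adjusted p = 0.00588) after the GC correction. EV cells lay below their attached level at all 4 times, with a mean of -0.96 ± 0.086 (SE, adjusted p = 1.55e-12), whereas non-apoptotic Tpm2.1 cells overlapped theirs, at 0.22 ± 0.095 (SE, adjusted p = 0.043). That last call was lost without 7 of the 10 libraries in turn, and its adjusted p was 0.142 with DESeq2. The difference between the responses was 1.18 ± 0.13 (SE, adjusted p = 3.4e-09). At 4 days L1CAM was higher in non-apoptotic Tpm2.1 than in EV cells by 0.49 ± 0.14 (SE, adjusted p = 0.00262), but by 0.27 with adjusted p = 0.203 without the first 4-day non-apoptotic library.

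CEACAM1 (ENSG00000079385, chr19:42507304-42561234 on the minus strand of hg38), an adhesion molecule and inhibitory receptor of epithelial and immune cells, was at the lower edge of detection, with 11 to 116 counts per library. Its level was 2.42 and 2.22 CPM in attached Tpm2.1 cells and 1.05 and 1.31 CPM in attached EV cells, a log2 difference of 0.97 ± 0.30 (SE, adjusted p = 0.0195) that was lost when any single one of the 4 libraries was left out (adjusted p 0.0538 to 0.165). In suspension it was 4.33 and 4.48 CPM after 5 hours, 1.77 and 2.22 after 1 day, 4.28 and 5.27 after 2 days, and 2.81 and 2.80 after 4 days in non-apoptotic Tpm2.1 cells, and 0.931 and 1.19 CPM after 5 hours, 1.19 and 1.14 after 1 day, 2.85 and 3.43 after 2 days, and 0.742 and 1.41 after 4 days in EV cells. Non-apoptotic Tpm2.1 libraries lay above EV libraries of the same time at all 4 times, and EV cells had their highest level at 2 days. The mean difference was 1.20 ± 0.16 (SE, adjusted p = 2.79e-08), 2.30-fold. At single times it passed at 5 hours, with 2.05 ± 0.31 (SE, adjusted p = 1.27e-06), and at 4 days, with 1.38 ± 0.35 (SE, adjusted p = 0.00121), the second not without the first 4-day EV library (0.99, adjusted p = 0.0542). Against attached cells CEACAM1 gave 0.51 ± 0.22 (SE, adjusted p = 0.0393) in non-apoptotic Tpm2.1 cells, lost without 7 of the 10 libraries in turn, and 0.27 ± 0.27 (SE, adjusted p = 0.389) in EV cells.

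Between apoptotic and non-apoptotic Tpm2.1 cells, the 3 catenin genes and NECTIN3 were lower in apoptotic cells over the first 2 days. Leaving out 4 days, 4 of the 10 genes passed, all lower, where 38.5% of all genes passed; the median log2 difference was -0.07 for the 10 genes and -0.02 for all genes. In the order 5 hours, 1 day and 2 days, CTNNA1 stood at 557 and 546, 561 and 551, and 584 and 664 CPM in apoptotic cells, against 659.9 and 655, 677 and 676, and 677 and 651 CPM in non-apoptotic cells. CTNNB1 stood at 556 and 545, 604 and 625, and 668 and 767 CPM in apoptotic cells at these times, against the non-apoptotic values given above. For both genes the fractions were apart at 5 hours and 1 day, and at 2 days the second CTNNA1 library of apoptotic cells fell between the non-apoptotic ones. CTNND1 in apoptotic cells stood at 203 and 190.0, 234 and 238, and 266 and 288 CPM at these times and NECTIN3 at 34.8 and 40.8, 46.6 and 49.5, and 45.9 and 49.2 CPM. At 2 days the fractions overlapped in CTNND1 and not in NECTIN3. The log2 differences were -0.21 ± 0.029 (SE, adjusted p = 4.46e-07) for CTNNA1, -0.23 ± 0.030 (SE, adjusted p = 1.06e-07) for CTNNB1, -0.17 ± 0.031 (SE, adjusted p = 2.59e-05) for CTNND1 and -0.22 ± 0.044 (SE, adjusted p = 0.00013) for NECTIN3. The other 6 genes did not pass: in apoptotic cells at these times PVR stood at 125 and 128, 110.1 and 99.6, and 86.7 and 95.2 CPM, NECTIN2 at 92.1 and 105, 94.1 and 92.5, and 91.4 and 94.1 CPM, and NECTIN1 at 82.9 and 75.1, 49.2 and 47.9, and 50.4 and 46.4 CPM. ALCAM stood at 338 and 371, 269.5 and 267, and 273 and 293 CPM, L1CAM at 24.6 and 26.3, 14.2 and 10.8, and 21.3 and 20.0 CPM, and CEACAM1 at 3.97 and 5.84, 2.60 and 3.36, and 3.90 and 5.80 CPM. None of these 6 genes was apart from non-apoptotic cells at all 3 times. Which of them passed depended on the setting. After the GC correction NECTIN1 (-0.13, adjusted p = 0.00566) and NECTIN2 (-0.15, adjusted p = 0.000994) passed as lower in apoptotic cells. NECTIN2 and ALCAM passed as lower in the fit without the apoptotic libraries of 4 days (adjusted p = 0.0307 and 0.0461). With no filter on low counts they passed too (adjusted p = 0.0284 and 0.0324). The differences of the catenins and NECTIN3 stayed called with any library left out and under every other setting tried, and were -0.18, -0.19, -0.13 and -0.18 after the GC correction.

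Up to 2 days, fewer genes passed at each later time. The 2 apoptotic libraries of 2 days were the least alike of any group, with a ratio of spread to counting noise of 10.01, against 1.82 to 7.567 elsewhere. The part of this spread in the counts was not tested. At 5 hours 5 genes passed, the 3 catenins, NECTIN3 and ALCAM, all lower in apoptotic cells, where 21.4% of all genes passed. At 1 day the 3 catenins passed, against 19.3% of all genes, CTNND1 not without the first non-apoptotic library (adjusted p = 0.0514). At 2 days CTNNB1 alone passed, at -0.17 ± 0.052 (SE, adjusted p = 0.0202), against 16.6% of all genes, and without the first apoptotic library of 2 days it was -0.08 (adjusted p = 0.512) and without the first non-apoptotic library -0.14 (adjusted p = 0.157). ALCAM at 5 hours was -0.17 ± 0.051 (SE, adjusted p = 0.0159), and without the first apoptotic library of that time -0.11 (adjusted p = 0.234), nor did it pass without the first non-apoptotic one (adjusted p = 0.119). NECTIN3 at 5 hours was -0.34 ± 0.076 (SE, adjusted p = 0.00136), and -0.24 (adjusted p = 0.0661) without the same library. The CTNND1 difference was -0.30 at 5 hours and -0.0038 at 2 days, and 8.46% of all genes changed between these times. That change of 0.30 ± 0.075 (SE, adjusted p = 0.00997) was lost without the second apoptotic library of 5 hours (adjusted p = 0.106) or of 2 days (adjusted p = 0.0718).

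The fractions also differed in RNA classes other than adhesion genes. All 13 mitochondrial mRNAs and all 3 nuclear-retained RNAs tested were higher in apoptotic cells over the first 2 days, with median log2 differences of 1.53 and 1.03. Over all 4 times mitochondrial mRNAs summed to between 25303 and 76622 CPM in apoptotic libraries and 11717 to 16700 CPM in non-apoptotic ones. Up to 2 days the highest apoptotic library held 51934 CPM. Suspended EV cells held 29030 to 42090 CPM up to 2 days and 11571 to 13002 CPM at 4 days. Against EV cells without 4 days, 2 of 13 mitochondrial mRNAs passed, both higher in apoptotic cells, where 45% of all genes passed. The part of these RNA classes in the lower catenin levels was not tested.

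At 4 days in suspension the fractions differed in 8 of the 10 genes, 3 higher and 5 lower in apoptotic cells, where 72.1% of all genes passed. NECTIN2 fell to 24.3 and 28.1 CPM in apoptotic cells, against 120.1 and 122 CPM in non-apoptotic cells, a log2 difference of -2.21 ± 0.081 (SE, adjusted p = 1.46e-24). NECTIN1 fell to 13.1 and 12.2 CPM in apoptotic cells, against 59.5 and 52.6 CPM in non-apoptotic cells, with -2.14 ± 0.099 (SE, adjusted p = 1.9e-21). L1CAM stood at 8.33 and 6.39 CPM in apoptotic cells and 22.5 and 16.97 CPM in non-apoptotic cells, with -1.42 ± 0.16 (SE, adjusted p = 2.88e-10). ALCAM went the other way, with 477 and 494 CPM in apoptotic cells and 247 and 259 CPM in non-apoptotic cells, and 0.94 ± 0.053 (SE, adjusted p = 9.27e-19). NECTIN3 and CTNND1 were higher as well, by 0.59 ± 0.073 (SE, adjusted p = 2.56e-09) and 0.30 ± 0.053 (SE, adjusted p = 3.73e-06), and CTNNB1 and CTNNA1 lower, with -0.66 ± 0.053 (SE, adjusted p = 5.19e-14) and -0.36 ± 0.051 (SE, adjusted p = 5.92e-08). PVR did not pass, at 94.3 and 104 CPM in apoptotic cells and 103 and 104 CPM in non-apoptotic cells and -0.06 ± 0.065 (SE, adjusted p = 0.404), and at the earlier times its log2 difference was -0.04, -0.0017 and -0.03 with an SE of at most 0.062. From 5 hours to 4 days the fraction difference itself changed in 7 genes, beside 66.9% of all genes. Over the 4 times together 6 genes passed, 1 higher and 5 lower, where 58% of all genes passed, and those means mix the pattern of 4 days with that of the earlier times.

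**Figure D4:**
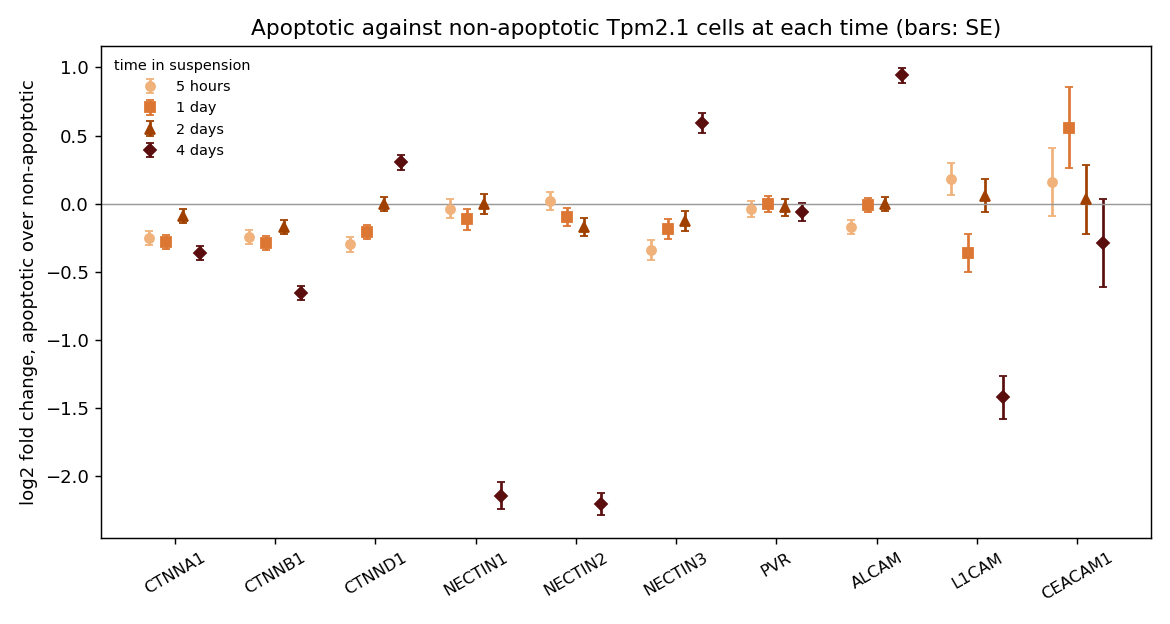
Log2 fold change (± SE) of apoptotic over non-apoptotic Tpm2.1 cells for each gene, with 1 symbol for each time in suspension. Up to 2 days the values lie between -0.36 and 0.56, and at 4 days NECTIN1 and NECTIN2 fall below -2 while ALCAM reaches 0.94.

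Across all genes the 4-day difference ran with the GC content of the transcript. The median log2 difference was 0.98 in the decile of genes poorest in GC and -2.79 in the richest, whereas at 5 hours it was -0.13 in the poorest and 0.28 in the richest. Smaller trends were present without apoptotic cells, over the 4 times in suspension. Between non-apoptotic Tpm2.1 and EV cells the medians were 0.04 in the poorest and -0.26 in the richest decile, and against attached Tpm2.1 cells 0.10 and -0.22. NECTIN1 (60.4% GC), L1CAM (60.0%) and NECTIN2 (59.4%) all lay in a decile with a median of -1.78 and a middle 50% of -2.66 to -1.02, and their own values were inside that range. ALCAM (39.6%) and NECTIN3 (38.9%) lay in a decile with a median of 0.82 and a middle 50% of 0.41 to 1.18, and also fell inside it. PVR, CTNNB1 and CTNNA1 lay outside the middle 50% of their deciles. PVR (56.5%) at -0.06 lay above the -1.93 to -0.42 of its decile, and CTNNB1 (43.5%) at -0.66 lay below the 0.01 to 0.91 of its own. CTNNA1 (47.8%) at -0.362 lay just below the -0.3557 to 0.6895 of its decile.

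After the GC correction the 4-day difference was -0.38 for NECTIN1 (adjusted p = 0.000831) and -0.61 for NECTIN2 (adjusted p = 4.91e-08). L1CAM turned to 0.28 (adjusted p = 0.143) and NECTIN3 to -0.32 (adjusted p = 0.000153), while ALCAM at 0.06 and CTNND1 at 0.03 no longer passed. PVR became 1.07 (adjusted p = 1.62e-16), CTNNB1 -1.24 (adjusted p = 2.73e-22) and CTNNA1 -0.51. Of the 10 genes, then, lower CTNNA1, CTNNB1, NECTIN1 and NECTIN2 in apoptotic cells at 4 days passed with and without the correction. The 4-day direction of L1CAM and NECTIN3 flipped under it, as did that of PVR, which had not passed before it.

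Apoptotic Tpm2.1 cells were also set against EV cells, for which no bead separation is named, without 4 days. There 9 of the 10 genes passed, 4 higher and 5 lower, where 45% of all genes passed, with a median of -0.10 for the 10 genes and -0.01 for all genes. NECTIN1, NECTIN2, PVR and CEACAM1 were higher, at 0.45 ± 0.045 (SE, adjusted p = 5.15e-11) for NECTIN1, 0.13 ± 0.038 (SE, adjusted p = 0.00458) for NECTIN2, 0.22 ± 0.036 (SE, adjusted p = 3.32e-06) for PVR and 1.40 ± 0.18 (SE, adjusted p = 2.04e-08) for CEACAM1. Non-apoptotic against EV cells over all 4 times gave 0.61, 0.17, 0.16 and 1.20 for these 4 genes. That set of times is larger, so the 2 rows of values do not compare the fractions. Set directly against non-apoptotic cells without 4 days, apoptotic cells gave -0.05, -0.08, -0.02 and 0.25 in the same order, and none passed. After the GC correction NECTIN1 (-0.13, adjusted p = 0.00566) and NECTIN2 (-0.15, adjusted p = 0.000994) did pass there, as lower. The catenins and NECTIN3 were lower in apoptotic than in EV cells, from -0.27 (adjusted p = 1.48e-09) for CTNND1 to -0.14 (adjusted p = 9.06e-05) for CTNNA1. ALCAM, at -0.07, lay at the threshold and was lost without 10 of the 12 libraries in turn.

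The other genes of the junctions are given from lists that name their partners. Their counts against attached cells stand beside 61.4% of all genes in non-apoptotic Tpm2.1 cells and 66.3% in EV cells. Among cadherins 3 of 10 had enough reads, among them CDH4, which encodes R-cadherin. CDH4 fell in suspension to a mean of 96.5 CPM in non-apoptotic Tpm2.1 cells, against 243 CPM in attached Tpm2.1 cells, and to 111 CPM in EV cells, against 295 CPM in attached EV cells. The log2 differences of CDH4 were -1.34 and -1.47 in that order. All 3 cadherins tested passed in both lines, 1 higher and 2 lower in non-apoptotic Tpm2.1 cells and all lower in EV cells. The higher one was CDH15, which had few reads. Its means were 0.883 CPM in non-apoptotic and 0.180 CPM in attached Tpm2.1 cells, and 0.270 CPM in suspended and 0.558 CPM in attached EV cells. Of 11 other catenins and junction adaptors tested, 10 passed in each line, 4 higher and 6 lower in non-apoptotic Tpm2.1 cells and 5 higher and 5 lower in EV cells. LIMA1, which links alpha-catenin to actin, fell by 1.60 in non-apoptotic Tpm2.1 cells and by 2.14 in EV cells on the log2 scale. The alpha-catenin relative CTNNAL1 fell by 1.61 in non-apoptotic Tpm2.1 cells and by 1.80 in EV cells, and vinculin (VCL) by 0.77 and 0.82. Plakoglobin (JUP) separated the lines in suspension, with a mean of 18.8 CPM in non-apoptotic Tpm2.1 cells and 52.9 CPM in EV cells, a log2 difference of -1.43. Afadin, encoded by AFDN, the actin linker of nectins, was higher in attached Tpm2.1 cells than in attached EV cells by 0.53 on the log2 scale.

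Genes of beta-catenin turnover and of its Wnt target programme went both ways in suspension. Of 14 turnover genes 12 passed in non-apoptotic Tpm2.1 cells, 5 higher and 7 lower, and 11 in EV cells, 7 higher and 4 lower, where 61.4% and 66.3% of all genes passed in that order. The kinase CSNK1A1, which primes beta-catenin for destruction, fell by 0.37 in non-apoptotic Tpm2.1 cells and by 0.56 in EV cells on the log2 scale. CSNK1D and BTRC, of the same list, went the other way. They rose by 0.48 and 0.56 in non-apoptotic Tpm2.1 cells and by 0.35 and 0.46 in EV cells. Among 12 Wnt targets tested 9 passed in each line, 4 higher and 5 lower in both, beside the same shares of all genes. DKK1, a Wnt antagonist and target, fell to a mean of 23.4 CPM in non-apoptotic Tpm2.1 cells, against 178 CPM in attached Tpm2.1 cells, and to 25.5 CPM in EV cells, against 213 CPM in attached EV cells. BMP4, of the same list, went the other way and rose by 0.37 in non-apoptotic Tpm2.1 cells and by 1.14 in EV cells on the log2 scale. CCND1, encoding cyclin D1, was lower in non-apoptotic Tpm2.1 than in EV cells in suspension, with a log2 difference of -0.57.

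Of 9 nectin relatives and receptors 3 had enough reads. In suspension 2 passed as higher in non-apoptotic Tpm2.1 cells, where 61.4% of all genes passed, and all 3 in EV cells, where 66.3% did. The gene that did not pass was PVRIG, at 1.39 (adjusted p = 0.242) with means of 0.168 CPM in non-apoptotic and 0.0604 CPM in attached Tpm2.1 cells. In EV cells PVRIG passed at means of only 0.310 CPM in suspended and 0 CPM in attached cells. CADM4 lay at the threshold there, with 0.30 (adjusted p = 0.0497). CD96, known as a lymphocyte receptor of PVR, reached a mean of 86.8 CPM in non-apoptotic Tpm2.1 cells, against 35.5 CPM in attached Tpm2.1 cells, and 112 CPM in EV cells, against 23.5 CPM in attached EV cells. Its log2 differences were 1.25 and 1.97 in that order. Leukocyte markers summed to at most 5.598 CPM in any library. Of 15 other immunoglobulin adhesion molecules tested 9 passed in each line, 7 higher and 2 lower in non-apoptotic Tpm2.1 cells and 8 higher and 1 lower in EV cells, near the same shares of all genes. ICAM1, the ligand of leukocyte integrins, rose by 2.30 in non-apoptotic Tpm2.1 cells and by 1.16 in EV cells on the log2 scale, and MCAM fell by 0.98 and 1.41. Among 12 proteases and linkers that shed or anchor these molecules, 11 passed in non-apoptotic Tpm2.1 cells, 4 higher and 7 lower, and 9 in EV cells, 2 higher and 7 lower, again beside 61.4% and 66.3% of all genes. Ezrin (EZR) fell by 1.06 in non-apoptotic Tpm2.1 cells and by 1.01 in EV cells, while NUMB rose by 1.24 and 0.67. ANK3, which encodes an ankyrin that anchors L1 family molecules, was higher in non-apoptotic Tpm2.1 than in EV cells in suspension by 3.23 on the log2 scale, with means of 44.5 and 4.58 CPM. Between the fractions without 4 days, 6 of the 12 proteases and linkers passed, all lower in apoptotic cells, and 7 of the 11 catenins and adaptors, 2 higher and 5 lower, where 38.5% of all genes passed.

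Over the 14 group means the genes most like each of the 10 were described by Pearson's r of log2 CPM, among 9659 protein-coding genes of at least 10 CPM. NECTIN2 was followed most closely by TSTA3 (r = 0.987), VASP (r = 0.986) and RHOG (r = 0.983), PVR by SLC7A1 and ISG20L2 (r = 0.969 each) and ALCAM by GTF3A (r = 0.961). SVIL led for CTNND1 (r = 0.945), SNAP29 for NECTIN3 (r = 0.948) and NOTCH1 for NECTIN1 (r = 0.943). The closest gene to CTNNA1 was PARS2 (r = 0.903), to CTNNB1 PEX19 (r = 0.894), to L1CAM MRPS7 (r = 0.878) and to CEACAM1 COL17A1 (r = 0.855). The points share library, depth and the GC trend of 4 days, so these are descriptions. Among the 10 genes themselves, CTNNA1 and CTNNB1 had r = 0.758, PVR and ALCAM r = 0.629, and NECTIN1 and NECTIN3 r = -0.780. Where annotated genes overlap, strand use in counting is not given in the sources used here, so reads of CEACAM19 and PVR (same strand), of ULK4 and CTNNB1 or of LIPE-AS1 and CEACAM1 (opposite strands) could be split between them. The counts of the overlapping gene reached at most 7.36% of those of PVR, 1.57% of those of CTNNB1 and 31.7% of those of CEACAM1 in any library.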

How the data were processed

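RNA-seq counts per gene, as deposited by the authors, were the main measure. FPKM values deposited beside them were used for levels between genes and as an alternative. The build was hg38 and DESeq2 was used, per the submitters' processing notes; the aligner is not given in the sources used here. Gene identifiers and coordinates matched GENCODE release 29. Groups were taken from the sample labels.

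Counts of all 28 libraries were fitted in 1 model with a mean per group in edgeR 4.0.16 (R 4.3.3, TMM scaling, filterByExpr, quasi-likelihood test, 14 residual degrees of freedom), and p-values were Benjamini-Hochberg adjusted over the 17191 genes tested in each comparison, with a threshold of 0.05. Levels are CPM after TMM. Alternatives were DESeq2 1.42.0, its size factors, no filter, only the libraries compared, a replicate block, limma 3.58.1 on log2(FPKM + 0.1) and log2(FPKM + 1), leaving out each library, and means without 4 days. A GC correction (a lowess trend of each library on transcript GC with span 0.2, then TMM) was added after seeing the data. The script was tested on simulated data. The total counts per library limit precision, most for CEACAM1.

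The 10 genes and the partner lists were chosen with earlier results of these data known. Partners named are at most 3 per list and comparison, those with the smallest p among genes that passed and reached 1 CPM in some group, together with their values in the other comparisons. Genes of like pattern are those with the highest r. Replicate numbers did not pair the libraries: over 91 pairs of groups the correlation of deviations ran from -0.0751 to 0.0541. In no group did the 2 replicate libraries agree within counting noise, with a ratio of spread to counting noise of 1.82 to 10.01 over genes.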

Additional observations from a re-analysis of the deposited data

Results flagged for a closer look

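The response to suspension differed between the lines in 6 of the 10 genes (edgeR, adjusted over all genes tested, of which 33.5% passed). Given as non-apoptotic Tpm2.1 minus EV on the log2 scale, the difference was 1.18 for L1CAM, 0.42 for PVR, 0.28 for NECTIN1, 0.18 for CTNNB1, -0.19 for CTNND1 and -0.36 for NECTIN3. For L1CAM the attached libraries of the lines did not overlap. Suspended ones overlapped within a time at 2 days only, and their mean difference of 0.06 (adjusted p = 0.445) was 0.19 (adjusted p = 0.00588) after the GC correction. The NECTIN1 value did not pass without attached EV replicate 1 (0.23, adjusted p = 0.0913).

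The difference between apoptotic and non-apoptotic cells changed with time. From 5 hours to 2 days it changed for CTNND1 by 0.30, where 8.46% of all genes passed. From 5 hours to 4 days it changed in 7 genes, where 66.9% of all genes passed: by -2.23 for NECTIN2, -2.11 for NECTIN1, -1.60 for L1CAM, -0.41 for CTNNB1, 0.60 for CTNND1, 0.93 for NECTIN3 and 1.11 for ALCAM. After the GC correction the 4-day changes of NECTIN3 and L1CAM turned to -0.13 and 0.26, and those of NECTIN1 (-0.17) and ALCAM (0.09) did not pass.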

How the results depend on the processing

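Over the 7 main comparisons and 10 genes, the replicate block left 68 of 70 values on the same side of the threshold with the same direction, and ended the calls of L1CAM in non-apoptotic Tpm2.1 cells in suspension (0.22, adjusted p = 0.0504) and of ALCAM in apoptotic Tpm2.1 against EV cells (-0.07, adjusted p = 0.0535). DESeq2 kept 65 of 70, its size factors 66, no filter 61, the libraries of the comparison alone 66, limma 64 and 65, the GC correction 57, the mean without 4 days 26 of 40 (7 no longer passed, 3 newly passed, 4 changed sign), the fit without the apoptotic libraries of 4 days 57 of 60, and leaving out a library 742 of 800.

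Some values changed sign, most of them near 0. CTNNB1 in suspended EV cells, 0.007, was -0.0351 with DESeq2, -0.0334 with its size factors, -0.0617 with no filter, -0.0164 with the compared libraries alone, -0.031 without the apoptotic libraries of 4 days, -0.035 and -0.0344 with limma, -0.021 with the GC correction, -0.0041 without 4 days, and -0.0152 to 0.0151 with a library left out. NECTIN1 in non-apoptotic Tpm2.1 cells, 0.014, was -0.0131, -0.0121 and -0.005 with DESeq2, its size factors and no filter, -0.0139 and -0.0096 with limma, and -0.0115 to 0.0337 with a library left out. CTNND1 in attached cells was -0.0044 with the GC correction and -0.0194 to 0.0812 with a library left out. Between the fractions over 4 times, PVR turned to 0.22 with the GC correction (adjusted p = 3.17e-07) and ALCAM, which had passed at 0.19, to -0.0606 without 4 days; with a library left out NECTIN3 ran from -0.0797 to 0.0012 and CEACAM1 from -0.0064 to 0.18, and L1CAM without 4 days from -0.12 to 0.0133. Between non-apoptotic Tpm2.1 and EV cells, NECTIN3 turned to 0.0396 and L1CAM to -0.088 without 4 days. The cause was not tested.

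In attached cells 3516 genes passed, 5440 with those libraries alone and 2028 to 2188 with a library left out, where fewer samples remain. Between the fractions 9973 genes passed, and 6612 without 4 days. The 8 genes that passed in non-apoptotic Tpm2.1 cells in suspension became 5 to 7 with a library left out. At single times the GC correction turned 10 called values, all touching the apoptotic cells of 4 days; CTNNA1 between 4 days and 5 hours in apoptotic cells, 0.18, was -0.0067 without the second 5-hour library. Depth limits CEACAM1, with 11 to 116 counts.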

Other observations

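PVR and NECTIN2 lie 182591 bases apart on chromosome 19. Of the 10 annotated genes between them 3 had enough reads. BCL3 was higher in suspension, by 0.64 in non-apoptotic Tpm2.1 cells and 1.28 in EV cells on the log2 scale, AC243964.3 was lower, at -0.30 and -0.67, and BCAM was -0.70 in non-apoptotic Tpm2.1 cells and 0.03, which did not pass, in EV cells.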
